A study of Homo sapiens with 18 samples.

Results

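GADD45A, GADD45B, CDKN1A, MDM2, PLK2, PLK3, TP53INP1, CCNG1, CCNG2 and FAS are genes of growth arrest that are known to be switched on by DNA damage and by other kinds of stress. The 10 genes were taken by name from a list set with earlier results of these data known, and each name matched 1 of the 55128 genes in the expression table. For the test across genes a gene had to reach 0.5 FPKM in at least 3 libraries (FPKM, the fragments of a gene divided by its exon length and by the library total), and 12108 genes did. All 10 genes entered the test, but TP53INP1 did so only through its 3 DMSO libraries. A gene that passes only through the group where it is high has to differ, so the fold changes of TP53INP1 are given as a description, and the counts are also given over the other 9 genes.

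The cells were T98G, a line from a human glioblastoma, and their RNA was taken after 2 h of treatment. The 6 groups were the solvent control DMSO, 8 µM gnetin H (GH, a resveratrol trimer of the oligostilbenes), 100 µM phenformin (Phen, a biguanide that inhibits complex I of the respiratory chain), 10 mM 2-deoxyglucose (2DG, a glucose analogue that blocks glycolysis), GH plus Phen and 2DG plus Phen. Each group held 3 biological replicates, A, B and C, which makes 18 libraries of 1 cell line, and the combinations used the doses of the single agents. The dose of 2DG is that of the sample labels and of the methods, and the results text of the study gives another dose.

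The libraries held 18417756 to 22497604 mapped fragments, recovered from the steps of the FPKM values. Of the genes typical of glioblastoma lines, VIM, CD44 and FN1 lay at 52.3 FPKM or more in every library, while NES, SOX2, GFAP, OLIG2 and CHI3L1 did not exceed 0.180 FPKM in any. Of 19 markers of blood, epithelial, endothelial, neural and other cells, 7 were at 0 in every library and only the neuronal gene SNAP25 reached 0.5 FPKM, and their summed level was 0.730 to 1.29 FPKM over all libraries. The trend of expression on the GC content of the genes differed between libraries of the same treatment. Its slope, in log2 units per 10 percentage points of GC against the mean of all libraries, was -0.301 in DMSO A and -0.229 in DMSO B but 0.0467 in DMSO C, and it was 0.231 in GH plus Phen B and 0.228 in GH plus Phen C but -0.191 in GH plus Phen A. These 2 libraries stood apart from their own groups. The slopes were -0.357 to -0.209 in Phen and 0.131 to 0.289 in 2DG, so that the trend also moved with the treatments, and results that it touches are given with and without a correction for it.

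Growth arrest after DNA damage holds cells in G1 or before mitosis, through the kinase inhibitor encoded by CDKN1A and the small GADD45 proteins, while FAS and TP53INP1 lead towards cell death and MDM2 encodes a ubiquitin ligase. Several of these genes can be switched on by more than 1 route. GADD45A and PLK3 are known to respond to the integrated stress response through ATF4, GADD45B to NF-kB, TGF-beta and MAP kinase signals, and CCNG2 to FOXO factors.

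The genes did not move as 1 group (limma on log2(FPKM + 0.1), Benjamini-Hochberg adjusted p under 0.05, all 18 libraries in 1 fit). GH changed 2 of the 10 genes, with GADD45A up and CCNG2 down, against 5.92% of all tested genes. Phen changed GADD45A alone, against 0.545% of all tested genes. With 2DG, GADD45A, GADD45B, CDKN1A and PLK3 rose and PLK2, CCNG2 and FAS fell. These are 7 of the 9 genes other than TP53INP1 (8 of 10 with it), beside 55.0% of all tested genes. Without DMSO A this count was 4 of the 9 genes that could then be tested, where 1232 of 12086 tested genes rose and 2506 fell. GH plus Phen raised GADD45A, PLK3 and PLK2 and lowered CCNG2, FAS and MDM2, 6 of 9 (7 of 10 with TP53INP1), where 28.0% of all tested genes were called. 2DG plus Phen raised GADD45A and PLK3 and lowered FAS, MDM2 and CCNG2, 5 of 9 (6 of 10 with TP53INP1), where 53.9% were called. GADD45A was the only one of the 10 genes that rose in all 5 treatments, and CCNG1 was the only one that passed the test in none of them.

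**Figure D1:**
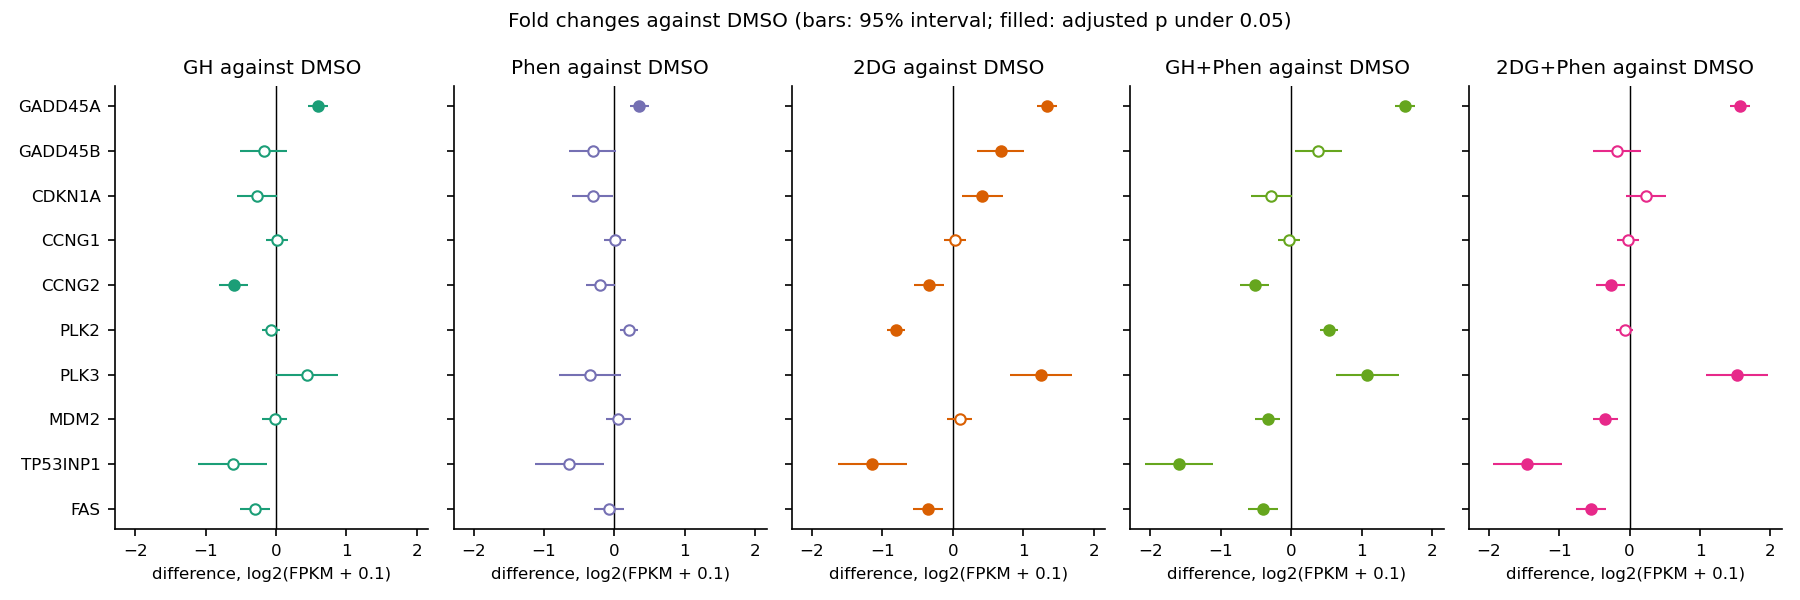
Difference of each treatment from DMSO on the log2(FPKM + 0.1) scale (x axis) for the 10 genes (y axis), with 95% confidence intervals from the fit of all 18 libraries and filled points where the adjusted p lay under 0.05. GADD45A lies to the right of 0 in every panel, from 0.36 in Phen to 1.62 in GH plus Phen, while PLK2 lies at -0.80 in 2DG and at 0.54 in GH plus Phen.

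Stricter thresholds set GADD45A apart from most of the group. At the thresholds that the study used for its own calls (a fold of at least 2, a Bonferroni p of at most 0.05 and a mean of at least 1 FPKM in the higher group), only GADD45A was higher in 2DG, where 0.429% of all tested genes were called, and only GADD45A in GH plus Phen, where 0.545% were called. In 2DG plus Phen both GADD45A and PLK3 passed these thresholds, where 1.37% were called. PLK3 also changed by a fold of more than 2 in 2DG (log2 1.25) and in GH plus Phen (1.08), but missed the Bonferroni limit there. None of the 10 genes passed them in GH or in Phen, where 12 and 1 of 12108 tested genes did.

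GADD45A (ENSG00000116717, chromosome 1, 67685061 to 67688338, forward strand, GRCh38) encodes a small stress protein that binds PCNA and CDK1 and activates the kinase MAP3K4. It read 11.04, 9.97 and 9.72 FPKM in DMSO A, B and C. It was 13.0, 13.7 and 12.7 FPKM in Phen and 15.6, 15.8 and 15.2 FPKM in GH. It was 25.9, 25.2 and 27.0 FPKM in 2DG, 30.2, 31.7 and 29.5 FPKM in 2DG plus Phen, and 35.5, 30.3 and 29.4 FPKM in GH plus Phen. In this order every group lay wholly above the one before it except the last, since the libraries of the 2 combinations overlapped. The log2 fold change was 0.60 (SE 0.0651, adjusted p = 7.7e-05) in GH, 0.36 (adjusted p = 0.023) in Phen, 1.34 (adjusted p = 2.9e-09) in 2DG, 1.62 (adjusted p = 2.2e-10) in GH plus Phen and 1.56 (adjusted p = 2.9e-10) in 2DG plus Phen. The call in Phen was lost without DMSO B, DMSO C or any of the 3 Phen libraries, with values of 0.32 to 0.38, and was kept without DMSO A. With the GC correction the values were 0.58, 0.45, 1.33, 1.63 and 1.58, in the same order, and all 5 calls were kept. GADD45A has a GC content of 50.7%, in the middle of the group.

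**Figure D2:**
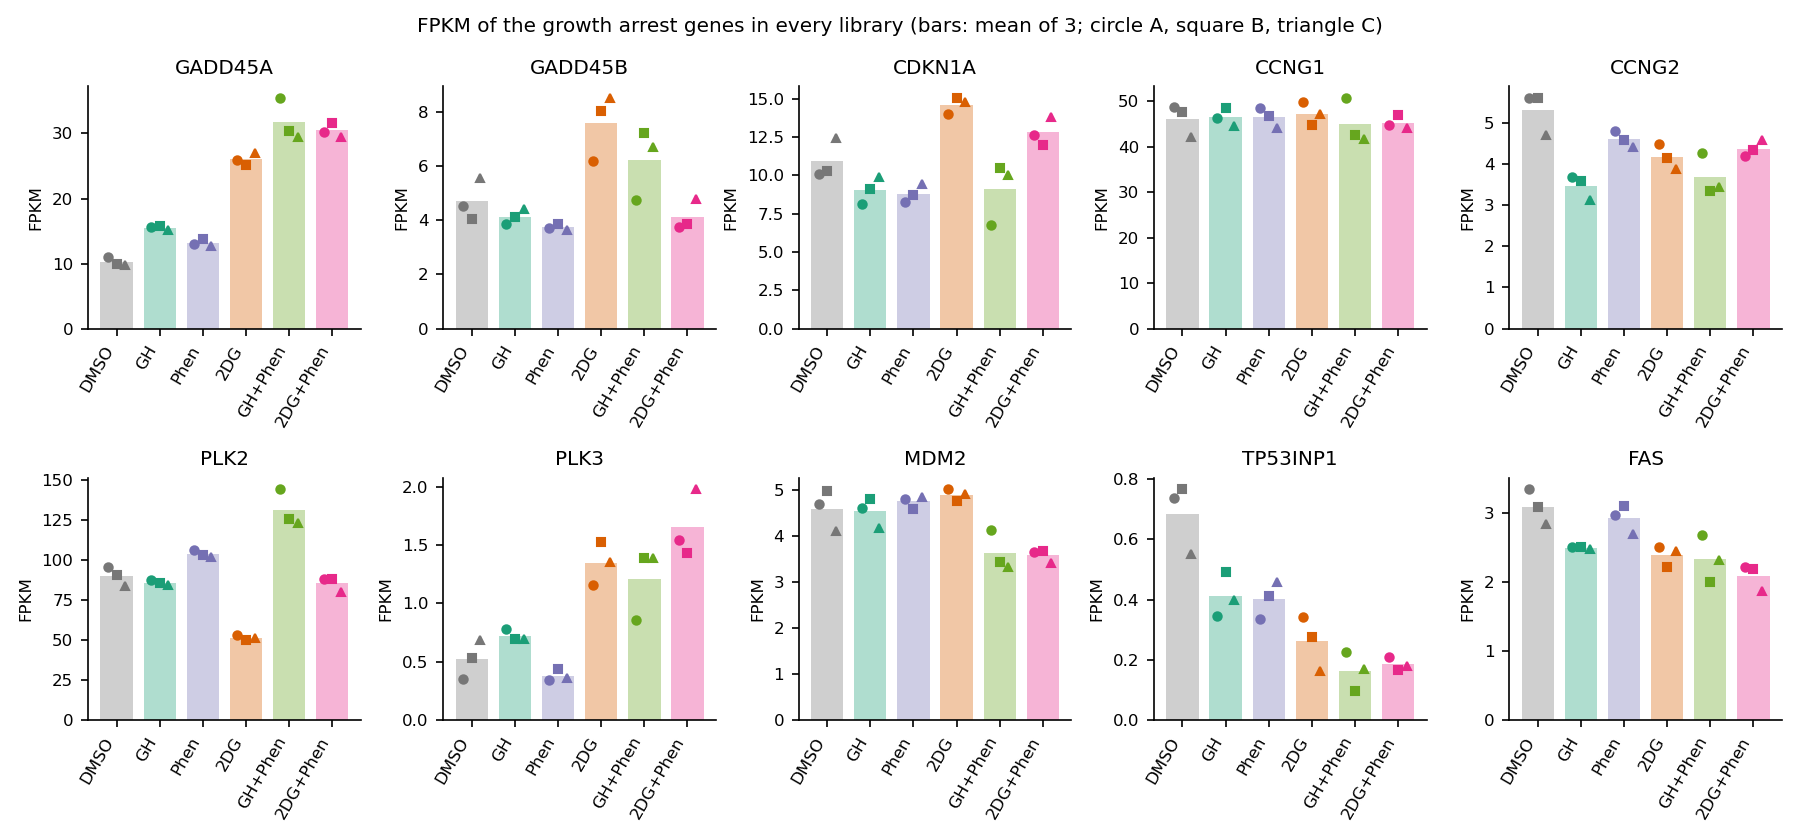
FPKM (y axes, each from 0) of the 10 genes in every library by treatment group; bars are means of 3 libraries and circles, squares and triangles are replicates A, B and C. GADD45A climbs from 10.2 FPKM on average in DMSO to 31.75 FPKM in GH plus Phen, PLK2 is lowest in 2DG at 51.6 FPKM, and CCNG1 stays between 41.7 and 50.9 FPKM in all libraries.

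GADD45B (ENSG00000099860, chromosome 19, 2476122 to 2478259, forward strand) encodes a close relative of GADD45A that also activates MAP3K4. Its levels were 4.52, 4.05 and 5.56 FPKM in DMSO and 6.20, 8.06 and 8.55 FPKM in 2DG, so the 2DG libraries lay above all DMSO libraries, and the log2 fold change was 0.68 (SE 0.158, adjusted p = 0.0039). GADD45B stood at 3.75, 3.86 and 4.80 FPKM in 2DG plus Phen, which overlapped DMSO and lay below every 2DG library (log2 difference from 2DG -0.86, adjusted p = 0.0020). In 2DG plus Phen the relatives thus differed, with GADD45A high and GADD45B near its DMSO level. In GH plus Phen GADD45B was 4.74 FPKM in A but 7.24 and 6.71 FPKM in B and C, and the difference from DMSO of 0.39 did not pass the test (adjusted p = 0.080). Replicate A is the library of that group whose GC trend stood apart. Without it and DMSO C the difference was 0.69 and passed the test. The GC slopes of the libraries then left were -0.301 and -0.229 in DMSO and 0.231 and 0.228 in GH plus Phen. With the GC correction and all libraries, the log2 levels of GADD45B were 2.60, 2.52 and 2.39 in GH plus Phen. They were 2.65, 2.35 and 2.37 in DMSO, which overlapped, and the difference did not pass the test. GADD45B has a GC content of 59.6%. With the GC correction its rise in 2DG shrank to 0.12 (adjusted p = 0.33) and its difference in 2DG plus Phen became -0.63 and passed the test, while the difference between 2DG plus Phen and 2DG stayed at -0.75. GH left GADD45B at 3.86, 4.11 and 4.43 FPKM and Phen at 3.71, 3.87 and 3.66 FPKM, neither of which passed the test. The difference in GH became -0.30 with the GC correction and passed (adjusted p = 0.045).

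CDKN1A (ENSG00000124762, chromosome 6, 36676460 to 36687339, forward strand) encodes p21, the inhibitor of cyclin-dependent kinases that carries out arrest in G1. It read 10.1, 10.3 and 12.4 FPKM in DMSO, and 14, 15.1 and 14.8 FPKM in 2DG, where it rose by 0.42 on the log2 scale (SE 0.135, adjusted p = 0.018). The call was lost without DMSO A, DMSO B, 2DG B or 2DG C, with values of 0.37 to 0.41, and the GC correction took the difference to -0.05 (adjusted p = 0.41). In GH it was 8.14, 9.14 and 9.90 FPKM, and in Phen 8.24, 8.71 and 9.44 FPKM. All 6 of these libraries lay below every DMSO library, with log2 differences of -0.27 in GH (adjusted p = 0.33) and -0.31 in Phen (adjusted p = 0.44) that did not pass the test. After the GC correction the difference in GH was -0.37 and passed. In GH plus Phen CDKN1A was 6.73, 10.5 and 10.1 FPKM, with A again apart, against 12.7, 12.01 and 13.8 FPKM in 2DG plus Phen. It was lower with GH than with 2DG beside Phen (log2 difference -0.52, adjusted p = 0.024), also with the GC correction (-0.42). This call was lost without GH plus Phen A, 2DG plus Phen A or 2DG plus Phen C, with values of -0.52 to -0.31. CDKN1A did not follow GADD45A: in GH plus Phen, where GADD45A was highest, CDKN1A lay at 9.10 ± 2.07 FPKM (SD, n = 3) against 10.95 ± 1.29 FPKM in DMSO.

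The 2 cyclin G genes differed. CCNG1 (ENSG00000113328, chromosome 5, 163437569 to 163446151, forward strand), whose cyclin brings the phosphatase PP2A to MDM2, was the most even of the group. It lay between 42.2 and 48.7 FPKM in DMSO and between 41.7 and 50.9 FPKM over all libraries, and its log2 differences from DMSO ran from -0.04 in GH plus Phen to 0.03 in 2DG, with a 95% interval of -0.12 to 0.19 for 2DG. With the GC correction CCNG1, at 38% GC, was instead higher in 2DG (0.30) and in 2DG plus Phen (0.29). CCNG2 (ENSG00000138764, chromosome 4, 77157151 to 77433388, forward strand), whose cyclin is linked to arrest rather than to growth, was 5.62, 5.62 and 4.70 FPKM in DMSO and 3.68, 3.59 and 3.13 FPKM in GH. All GH libraries lay below all DMSO libraries, and CCNG2 fell by 0.60 on the log2 scale in GH (SE 0.0969, adjusted p = 0.0020), a difference that held without each library in turn and with the GC correction (-0.57). CCNG2 was 4.27, 3.34 and 3.44 FPKM in GH plus Phen (log2 -0.52, adjusted p = 0.0012) and also fell in 2DG (-0.34, adjusted p = 0.011) and in 2DG plus Phen (-0.27, adjusted p = 0.030). The combinations did not differ by the test (-0.25, adjusted p = 0.13). The call in 2DG was lost without DMSO A (-0.30), and that in 2DG plus Phen without DMSO A, DMSO B, 2DG plus Phen A or 2DG plus Phen B (-0.27 to -0.23). Both were lost with the GC correction (-0.13 and -0.01), while that in GH plus Phen was kept (-0.39).

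The polo-like kinase genes PLK2 and PLK3 went apart in 2DG. PLK2 (ENSG00000145632, chromosome 5, 58453982 to 58460260, reverse strand), a kinase of centriole duplication and of the S phase checkpoint, was the most abundant of the 10 genes per length. PLK3 (ENSG00000173846, chromosome 1, 44800225 to 44805990, forward strand), a kinase of the stress response, was at the lower end, with 22 to 149 recovered fragments per library. The 250 bases before the start of PLK2, PLK3 and GADD45B are shown because these genes split between the treatments. They are from RefSeq on GRCh38.p14, at chr5:58460087-58460336 (reverse strand), chr1:44800127-44800376 (forward strand) and chr19:2475877-2476126 (forward strand). The starts are those of RefSeq. For PLK2 and PLK3 they lie inside the gene spans given above, as does part of each window. Capitals mark matches on either strand to the letters of the C/EBP-ATF element (TGATGNAAN), the core of the cAMP response element (TGACG), the SP1 box (GGGCGG), the EGR box (GCGNGGGCG), the E-box (CACGTG) and the CCAAT box (CCAAT).
PLK2: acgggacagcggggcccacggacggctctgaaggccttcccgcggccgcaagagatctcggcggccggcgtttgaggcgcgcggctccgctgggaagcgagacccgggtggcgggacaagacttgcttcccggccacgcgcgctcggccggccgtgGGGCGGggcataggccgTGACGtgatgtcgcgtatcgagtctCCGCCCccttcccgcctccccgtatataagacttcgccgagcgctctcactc
PLK3: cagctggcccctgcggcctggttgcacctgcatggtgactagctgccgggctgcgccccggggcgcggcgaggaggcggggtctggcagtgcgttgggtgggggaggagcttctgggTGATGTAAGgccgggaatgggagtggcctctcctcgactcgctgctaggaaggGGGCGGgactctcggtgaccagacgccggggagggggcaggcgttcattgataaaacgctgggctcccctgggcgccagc
GADD45B: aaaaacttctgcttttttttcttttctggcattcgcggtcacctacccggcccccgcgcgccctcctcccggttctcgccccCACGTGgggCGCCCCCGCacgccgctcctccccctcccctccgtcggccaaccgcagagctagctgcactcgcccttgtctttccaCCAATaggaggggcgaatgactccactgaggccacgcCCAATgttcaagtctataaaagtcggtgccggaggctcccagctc
The PLK3 window held the C/EBP-ATF letters at positions -133 to -125 from the start, where 3.13% of 35116 RefSeq windows of this length hold a match. The PLK2 window held the cAMP response element core at -77 to -73 (21.2% of windows), and the GADD45B window held an E-box (6.34%) and, next to it, an EGR box (8.41%). Windows were found for 8 of the 10 genes, 14 in all with alternative starts, and no other window held the C/EBP-ATF letters. The AP-1 (TGANTCA), FOXO (TGTTTAC), heat shock (GAANNTTC) and full cAMP response (TGACGTCA) elements were searched as well, and none of these 3 windows held one. Elements searched by name only are not in capitals. Among them was an NF-kB site at -163 to -154 in GADD45B, which overlaps the E-box and the EGR box, and which was also found in FAS (9.96% of all windows). A match is a run of letters in a window and does not show that a factor binds there.

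PLK2 read 95.6, 90.7 and 83.8 FPKM in DMSO and 53.3, 50.1 and 51.3 FPKM in 2DG. The 2DG libraries lay far below all others, and PLK2 fell by 0.80 on the log2 scale (SE 0.0593, adjusted p = 3.3e-07). With Phen added to 2DG the level was 88.2, 88.1 and 80.4 FPKM, which overlapped DMSO (log2 difference from DMSO -0.07, adjusted p = 0.31, 95% interval -0.20 to 0.05) and exceeded 2DG by 0.73 (adjusted p = 1.4e-06). PLK2 was 107, 104 and 102 FPKM in Phen, above all DMSO libraries, but the difference of 0.21 did not pass the test (adjusted p = 0.17). It was also 0.21 with the GC correction and passed (adjusted p = 0.011). It was highest in GH plus Phen at 145, 126 and 124 FPKM (log2 0.54, adjusted p = 1.4e-05), although GH alone left it at 87.6, 85.6 and 84.5 FPKM (log2 -0.07, adjusted p = 0.65). The calls for PLK2 in 2DG and in GH plus Phen held without each library in turn and with the GC correction (-0.69 and 0.63). PLK3 was 0.349, 0.530 and 0.687 FPKM in DMSO, 1.16, 1.53 and 1.36 FPKM in 2DG and 1.55, 1.43 and 1.98 FPKM in 2DG plus Phen. All libraries with 2DG lay above all DMSO libraries, with log2 fold changes of 1.25 (SE 0.207, adjusted p = 0.00039) and 1.52 (adjusted p = 4.3e-05). In GH plus Phen PLK3 was 0.856, 1.39 and 1.39 FPKM (log2 1.08, adjusted p = 0.0015), where GH alone gave 0.780, 0.698 and 0.691 FPKM (0.44, adjusted p = 0.28) and Phen alone 0.343, 0.434 and 0.360 FPKM (-0.34, adjusted p = 0.58). PLK3 has the highest GC content of the group, 60.8%, and the GC correction reduced its changes to 0.60 in 2DG, 0.69 in GH plus Phen and 0.998 in 2DG plus Phen, all of which still passed the test.

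The ubiquitin ligase gene and the genes tied to cell death were lower or level. MDM2 (ENSG00000135679, chromosome 12, 68808176 to 68850686, forward strand) was 4.70, 4.99 and 4.10 FPKM in DMSO and 5.03, 4.77 and 4.92 FPKM in 2DG, which did not differ beyond their spread (log2 0.10, adjusted p = 0.33). In the combinations it was lower, at 4.13, 3.45 and 3.34 FPKM in GH plus Phen (log2 -0.33, adjusted p = 0.0089) and 3.66, 3.68 and 3.41 FPKM in 2DG plus Phen (-0.35, adjusted p = 0.0038). All libraries of 2DG plus Phen lay below all DMSO libraries, while GH plus Phen A overlapped them. The call in GH plus Phen was lost without DMSO B or GH plus Phen C (-0.27 each), and both calls were kept with the GC correction (-0.23 and -0.13), which in 2DG gave a rise (0.30). FAS (ENSG00000026103, chromosome 10, 88990582 to 89015785, forward strand), the death receptor at the cell surface, was 3.35, 3.09 and 2.84 FPKM in DMSO and fell to 2.22, 2.19 and 1.87 FPKM in 2DG plus Phen (log2 -0.54, adjusted p = 0.00051). It also fell in 2DG (-0.36, adjusted p = 0.0098) and in GH plus Phen (-0.40, adjusted p = 0.0084), while its difference in GH, -0.29, did not pass (adjusted p = 0.10) and did so with the GC correction (-0.25). The call in 2DG was lost without DMSO A (-0.30) and with the GC correction (-0.15), and that in GH plus Phen without GH plus Phen B (-0.30). TP53INP1 (ENSG00000164938, reverse strand), a stress gene of autophagy and cell death, was 0.736, 0.767 and 0.552 FPKM in DMSO and lay below these values in all 15 treated libraries, from 0.0962 FPKM in GH plus Phen B to 0.492 FPKM in GH B. These are 12 to 86 recovered fragments per library. Its log2 differences from DMSO were -0.62 in GH, -0.64 in Phen, -1.14 in 2DG, -1.59 in GH plus Phen and -1.45 in 2DG plus Phen. TP53INP1 overlaps NDUFAF6, at 4.80 FPKM on average, on the opposite strand, and the counting kept the strand. In RNA from whole cultures, a lower level in all cells and a loss in some of them cannot be told apart.

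The combinations were compared with their single agents to ask whether the effects added up on the log2 scale. In the test of the departure from the sum, 3 of the 10 genes passed for GH with Phen, where 5.19% of all tested genes did, and 2 for 2DG with Phen, where 4.97% did. For GADD45A the single effects of GH and Phen summed to 0.95 and the combination reached 1.62, a departure of 0.67 (SE 0.0921, adjusted p = 0.00084). For PLK2 the sum was 0.15 and the combination 0.54, a departure of 0.40 (adjusted p = 0.015). For GADD45B the single effects summed to -0.49 and the combination was 0.39 (departure 0.87, adjusted p = 0.036), a call that was lost with the GC correction (0.40) and without each of 9 single libraries (0.75 to 0.89), namely DMSO A and C, GH A and B, Phen A, B and C, and GH plus Phen B and C. Without GH plus Phen A, 6 of the 10 genes passed, where 2172 of 12092 tested genes lay above their sum and 2385 below it. For 2DG with Phen GADD45A did not depart from the sum (1.69 against 1.56, departure -0.13, adjusted p = 0.58, 95% interval -0.32 to 0.07). PLK2 did, with a sum of -0.59 and a combination of -0.07 (departure 0.52, adjusted p = 0.0019), and MDM2 had a sum of 0.15 and a combination of -0.35 (departure -0.50, adjusted p = 0.024). The MDM2 call was lost without DMSO C, Phen A, Phen C, 2DG A, 2DG C or 2DG plus Phen C (-0.49 to -0.42), which leaves a count of 1, and was kept with the GC correction (-0.38).

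**Figure D3:**
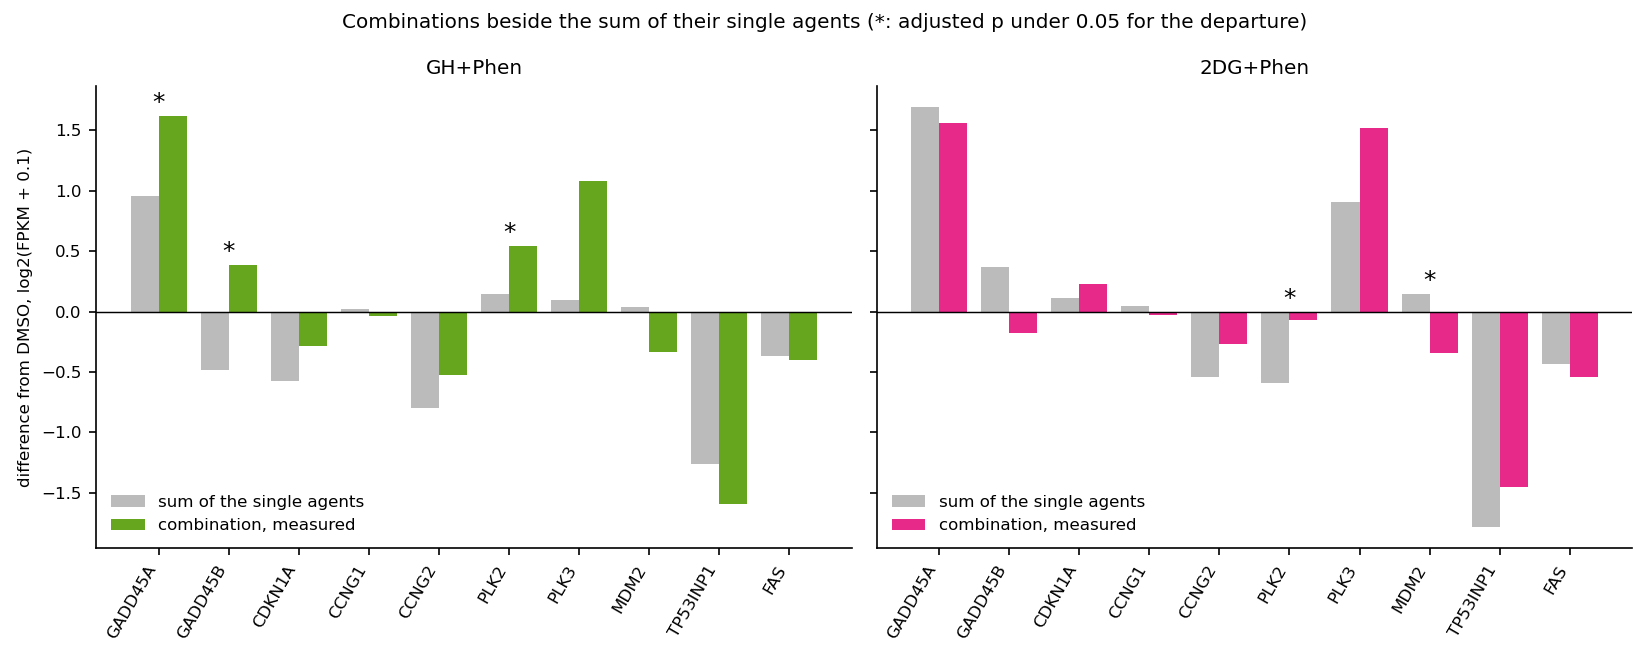
Sum of the log2 differences of the 2 single agents from DMSO (grey bars) and the difference measured in the combination (coloured bars) for the 10 genes, with a star where the departure passed the test. GADD45A exceeds its sum with GH (1.62 against 0.95) and not with 2DG (1.56 against 1.69), and PLK2 lies above its sum in both panels.

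Set against the single agents directly, GH plus Phen changed 5 of the 10 genes, or 4 of the 9 other than TP53INP1, relative to GH (12.5% of all tested genes), with GADD45A (log2 1.02, adjusted p = 1.5e-07), PLK2 (0.61) and GADD45B (0.56) higher and MDM2 (-0.32) and TP53INP1 (-0.98) lower. The count was 3 without GH A or GH plus Phen C and 2 without GH B or GH plus Phen B, as the calls for GADD45B (0.44 to 0.56), MDM2 (-0.30 to -0.26) and TP53INP1 (-0.86 to -0.78) were lost in part. In these fits 241 to 251 of all tested genes rose and 589 to 617 fell, against 399 and 1116 in the full fit. Relative to Phen, GH plus Phen changed 8 of 10, or 7 of 9 (47.7% of all tested genes), with GADD45A (1.26), PLK3 (1.43), GADD45B (0.70) and PLK2 (0.33) higher and MDM2 (-0.38), CCNG2 (-0.32), FAS (-0.32) and TP53INP1 (-0.95) lower on the log2 scale. The call for CCNG2 was lost without Phen A, GH plus Phen B or GH plus Phen C, that for FAS without Phen A, Phen B, GH plus Phen B or GH plus Phen C, and those for GADD45B (0.10) and FAS (-0.15) with the GC correction. 2DG plus Phen changed 4 of 10 relative to 2DG (11.2% of all tested genes). PLK2 was higher and GADD45B and MDM2 were lower, as above, and GADD45A was higher by 0.23 (adjusted p = 0.035), a call that did not survive the loss of any single library of either group (0.20 to 0.25). Relative to Phen it changed 7 of 10, or 6 of 9 (65.4% of all tested genes), with PLK3 (1.86), GADD45A (1.21) and CDKN1A (0.54) higher and FAS (-0.47), MDM2 (-0.40), PLK2 (-0.28) and TP53INP1 (-0.81) lower. With the GC correction CDKN1A was at -0.02 and no longer passed, nor did MDM2 (-0.09) and TP53INP1 (-0.50). These comparisons share the libraries of the combinations. Between the combinations 3 of 10 genes differed (10.5% of all tested genes), with PLK2 (0.61, adjusted p = 1.1e-05) and GADD45B (0.57, adjusted p = 0.033) higher with GH and CDKN1A lower. The call for GADD45B was lost without GH plus Phen B, GH plus Phen C, 2DG plus Phen A or 2DG plus Phen B (0.45 to 0.52). The count was 1 without 2DG plus Phen A, where 649 of 12092 tested genes were higher with GH and 166 lower. GADD45A did not differ between them (0.06, adjusted p = 0.70, 95% interval -0.08 to 0.19).

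The correction for GC content and length acted along the GC content of the genes. It lowered the changes of the 3 genes with the highest GC content, PLK3, GADD45B and CDKN1A, in all 3 comparisons of 2DG, GH plus Phen and 2DG plus Phen with DMSO, and raised those of CCNG1, TP53INP1, MDM2, CCNG2, FAS and PLK2. GADD45A moved by little in each. After it, 6 of the 10 genes were called in 2DG (44.2% of all tested genes), 9 in GH plus Phen (38.0%) and 8 in 2DG plus Phen (50.8%), TP53INP1 included each time. In 2DG the rises of GADD45B and CDKN1A and the falls of FAS and CCNG2 no longer passed, and rises of MDM2 and CCNG1 did. In GH plus Phen CDKN1A was then lower (-0.56). GADD45A and PLK3 kept their calls in all 3 comparisons, and PLK2 kept its 2. The correction also removes any true change that goes along with GC content, and which of the 2 values is nearer to the cells was not tested.

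**Figure D4:**
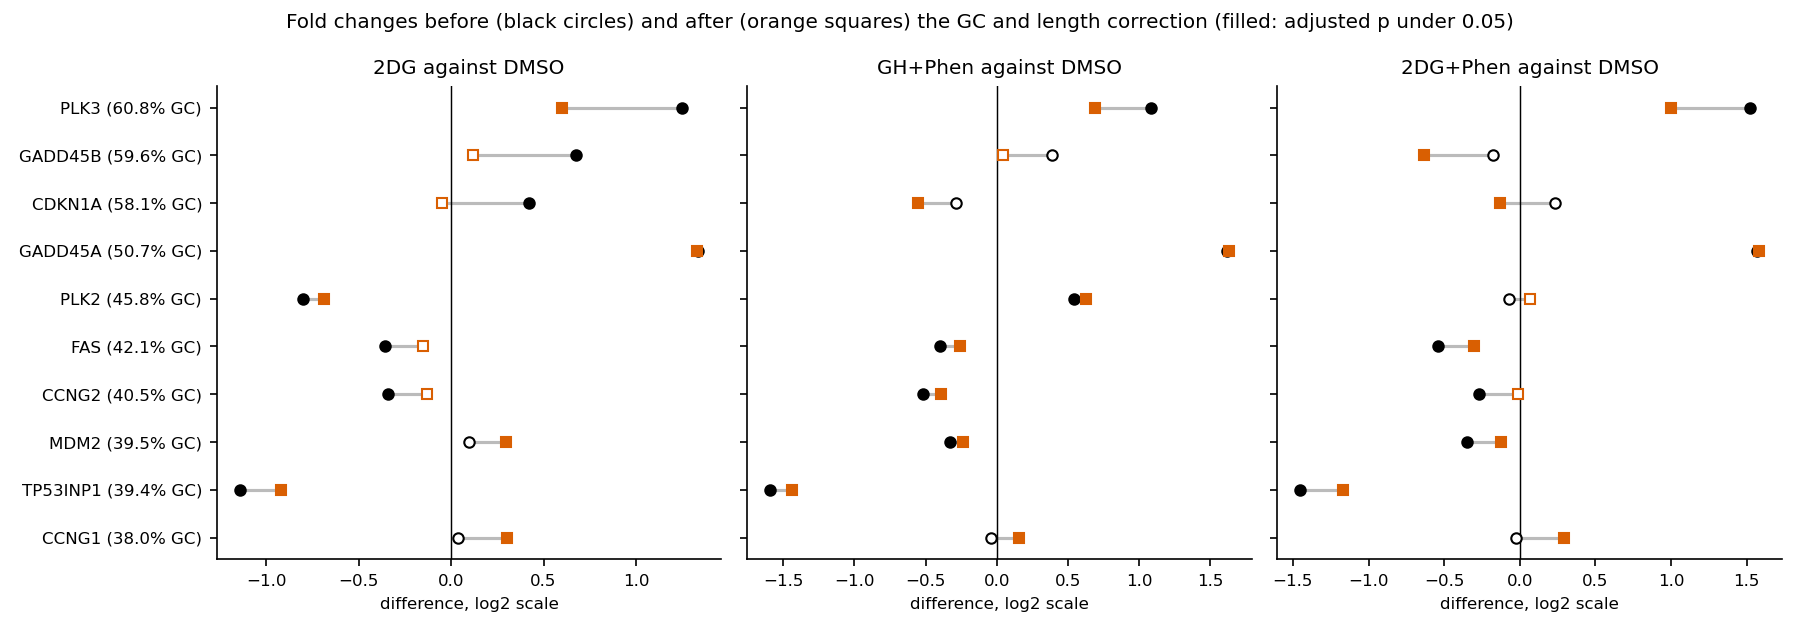
Log2 difference from DMSO (x axis) of the 10 genes, ordered by GC content from 38% at the bottom to 60.8% at the top, before (black circles) and after (orange squares) the correction for GC content and length, filled where the adjusted p lay under 0.05. In the 2DG panel CDKN1A goes from 0.42 to -0.05 and CCNG1 from 0.03 to 0.30, while GADD45A stays at 1.34 and 1.33.

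Other genes of the same pathways were mixed as well. Over all tested genes 24.7% rose and 30.3% fell in 2DG, 9.40% rose and 18.6% fell in GH plus Phen, and 21.1% rose and 32.8% fell in 2DG plus Phen, with median log2 differences from DMSO of -0.05, -0.02 and -0.05. The counts of the lists that follow stand beside these shares and were given no test. The list of the GADD45 family, its partners and its pathway also held 2 genes with other GADD names, which rose. DDIT3 (GADD153, CHOP) went from 17.7 ± 1.96 FPKM (SD, n = 3) in DMSO to 43.8 ± 1.23 in GH, 99.3 ± 2.71 in 2DG, 65.7 ± 5.21 in GH plus Phen and 45.9 ± 2.60 in 2DG plus Phen, and was 17.8 ± 0.826 in Phen. PPP1R15A (GADD34), which restarts translation during stress, went from 26.1 ± 3.43 FPKM to 39.8 ± 3.59, 63.5 ± 5.48, 83.8 ± 15.4 and 93.2 ± 5.80 in the same order. The order of the treatments thus differed between the GADD genes, with DDIT3 highest in 2DG, GADD45A and PPP1R15A highest in the combinations and GADD45B highest in 2DG. CCNB1, the mitotic cyclin whose kinase GADD45A can inhibit, fell by 0.20 in GH, by 0.29 in 2DG and in GH plus Phen and by 0.31 in 2DG plus Phen. Its values after the GC correction were -0.16, -0.06, -0.14 and -0.06 in the order GH, 2DG, GH plus Phen and 2DG plus Phen, and passed the test. Of the 14 tested genes of this list 5 rose and 8 fell in 2DG, 2 rose and 4 fell in GH plus Phen and 4 rose and 8 fell in 2DG plus Phen. After the GC correction the counts were 2 and 4, 2 and 2, and 4 and 3.

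Of 13 other cell cycle inhibitors and G1 cyclins, 4 rose and 6 fell in 2DG, 3 rose and 3 fell in GH plus Phen and 4 rose and 6 fell in 2DG plus Phen. The counts after the GC correction were 3 and 4, 5 and 2, and 4 and 3. CDKN1B, the p27 gene, fell by 0.20 in GH and rose by 0.20 in GH plus Phen and by 0.38 in 2DG plus Phen. In the combinations CDKN1A did not pass the test, and with the GC correction it passed as a fall in both. The corrected values of CDKN1B were -0.167 in GH, 0.144 in 2DG, 0.336 in GH plus Phen and 0.612 in 2DG plus Phen, and passed. CCNE2 fell by 0.39, 0.26 and 0.50 in the 3 treatments, and RBL2, a relative of the retinoblastoma gene, by 0.34 in 2DG and 0.36 in 2DG plus Phen. After the GC correction these falls were smaller but passed, at -0.145, -0.070 and -0.188 for CCNE2 and -0.178 and -0.161 for RBL2. Of the other polo-like kinases PLK1 rose in 2DG (0.30) and in 2DG plus Phen (0.31), and PLK4 fell in 2DG plus Phen (-0.42). The GC correction turned the values of PLK1 to -0.14, a fall, in 2DG and to -0.02 in 2DG plus Phen, which did not pass, and left PLK4 at -0.12 in 2DG plus Phen, which passed. Around FAS, 1 of 9 tested genes of the death pathway rose and 5 fell in 2DG, 5 fell in GH plus Phen, and 1 rose and 6 fell in 2DG plus Phen. The counts after the GC correction were 0 and 4, 0 and 7, and 1 and 6. Its kinase gene RIPK1 and its caspase gene CASP8 fell with FAS in all 3 treatments, by 0.52 and 0.53 in 2DG plus Phen. After the GC correction RIPK1 and CASP8 still passed as falls in all 3, at -0.43 and -0.32 in 2DG plus Phen. FAS itself then no longer passed in 2DG. The FAS ligand gene FASLG did not exceed 0.0276 FPKM.

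Of the transcription factors known to drive genes of the group, more rose than fell in 2DG and in both combinations, but not in GH. Of 18 tested, 1 rose and 4 fell in GH (0 and 6 with the GC correction), 10 rose and 2 fell in 2DG, 7 rose and 2 fell in GH plus Phen, and 11 rose and 3 fell in 2DG plus Phen, with medians of 0.24, 0.16 and 0.27 on the log2 scale in these 3. After the GC correction the counts in the last 3 were 11 and 2, 7 and 2, and 12 and 2. As a background for GH, 2.29% of all tested genes were called higher and 3.63% lower. With that correction 916 of 12022 were called higher and 959 lower. Falls thus outnumbered rises in GH over all tested genes as well. ATF4, the effector of the integrated stress response, was 89.9 ± 4.50 FPKM (SD, n = 3) in DMSO, 109 ± 2.20 in GH, 89.1 ± 2.03 in Phen, 177 ± 0.962 in 2DG, 148 ± 9.76 in GH plus Phen and 136 ± 3.95 in 2DG plus Phen. Its rise in GH (log2 0.27) did not pass after the GC correction (0.19). KLF6, a zinc finger factor known to raise CDKN1A, rose from 10.2 ± 0.245 FPKM to 49.2 ± 0.114 in 2DG plus Phen and fell to 8.06 ± 0.0177 in GH. MYC, which represses CDKN1A and GADD45A in other settings, rose by 0.75 in 2DG, 1.37 in GH plus Phen and 1.54 in 2DG plus Phen. These are RNA levels. By western blot of T98G cells the study reported less c-myc protein with either combination.

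The genes of the group also differed in how they varied together over the 18 libraries, which share their treatments and their GC trends. GADD45A and PLK3 had the highest Pearson correlation of log2(FPKM + 0.1) among the pairs, 0.848, while GADD45A and GADD45B had 0.431 and GADD45A and CDKN1A 0.283. CDKN1A and PLK2 had -0.786. Among all tested genes GADD45A was most like RND3 (0.976), PLK3 was most like MICA (0.980) and RFTN1 (0.973), and PLK2 was most like ZNF217 (0.959) and ETS1 (0.958). MDM2 was most like RAB27B (0.964) and LGR4 (0.939), CDKN1A most like KLF13 (0.950) and PDRG1 (0.949), and FAS most like ORC6 (0.950) and COA5 (0.947). The nearest genes of the others were SLC45A4 (0.898) and TIGD5 (0.873) for GADD45B, GCLC (0.935) and RNF103 (0.927) for TP53INP1, EIF1B (0.900) and CENPL (0.895) for CCNG2, and HNRNPLL (0.872) and HNRNPR (0.859) for CCNG1. The even gene CCNG1 thus also had the lowest of these nearest correlations.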

How the data were processed

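Polyadenylated RNA of 18 T98G libraries (6 groups of 3) was read from both ends as stranded libraries on a NextSeq instrument. The authors used CLC Genomics Workbench version 11 to map the reads to the human genome GRCh38, took gene models from Ensembl 89, and deposited FPKM values, 1 per gene and library. Whole fragments could be recovered from the steps of the values for 25124 of the 25158 genes above 0 (99.865% at a tolerance of 0.001), which gave 18417756 to 22497604 mapped fragments per library. In 18 pairs of replicates chi-square per degree of freedom was 1.33 to 36.8, so none agreed within sampling noise. The labels call the replicates biological, and p-values measure only the spread between these samples. Intervals from counts would cover counting error only, and the errors given are those between replicates.

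The 12108 genes that reached 0.5 FPKM in 3 or more libraries were compared on log2(FPKM + 0.1) with limma version 3.58.1 (R version 4.3.3), with a mean-variance trend, a coefficient for each of the 6 groups, 12 residual degrees of freedom and Benjamini-Hochberg adjustment over all tested genes. The changes of genes near 0.1 FPKM are understated on this scale. The 12 comparisons were each treatment with DMSO, the combinations with their single agents and with each other, and the departures from additivity. Because the values are FPKM, no count model was used. The GC content and length correction removed a spline trend of each library on both measures, with GC content from GENCODE 44 for 12022 genes. The test was checked on simulated data. Promoter windows came from RefSeq. Figures were drawn with matplotlib version 3.10.9 and tables with pandas version 2.3.3 and numpy version 2.4.6 in Python version 3.11.15.

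The 10 genes and the pathway lists were chosen with earlier results of these data known. The text names all 10 genes, the genes of each list with the lowest adjusted p in any of the 5 treatments (up to 3 a list), and the 2 genes most like each of the 10 by Pearson correlation. FASLG was added as the ligand of FAS after its values were seen. List genes under the level for testing are counted as not tested. Some genes and lists that this rule would name are not reported here. The alternatives were other pseudocounts, filters, scalings and variance models, the fit of only the groups compared, the GC correction, a replicate block, the study's call thresholds and left-out libraries. The GC correction without DMSO C and GH plus Phen A was added after seeing the data.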

Additional observations from a re-analysis of the deposited data

Results flagged for a closer look

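For 3 of the 10 genes the effect of Phen differed with and without GH by the interaction test (limma, 3 libraries per group). The departure from the sum of the single effects was 0.67 for GADD45A, 0.87 for GADD45B and 0.40 for PLK2 on the log2 scale. For PLK2 the effect of Phen also differed with and without 2DG, by 0.52, and for MDM2 by -0.50. These tests share the DMSO and Phen libraries. The GADD45B departure was lost with the GC correction (0.40) and without each of 9 single libraries, and the MDM2 departure without each of 6. With only the groups compared in the fit, GADD45A alone passed for GH with Phen. The departures of GADD45A and PLK2 were kept in every fit that left out 1 library and with the GC correction.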

How the results depend on the processing

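Of the 56 calls made for the 10 genes in the 12 comparisons, 44 were kept with the GC content and length correction. When a single library was left out, 39 were kept in every fit that could test the gene, which for TP53INP1 were 15 fits. Those 15 fits all keep the DMSO libraries through which TP53INP1 entered the test. Its calls are included in the 56, the 44 and the 39, but they are a description and say nothing on how firm the calls are. Genes of low level (PLK3, TP53INP1) rest on few fragments, and 3 libraries per group limit the precision of all values. TP53INP1 could not be tested when a DMSO library was left out or under the stricter filter (1 FPKM in 6 or more libraries). The cause of the differences between settings below was not tested.

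The number of the 10 genes called ranged, when a library was left out, from 2 to 3 for GH, 0 to 2 for Phen, 4 to 8 for 2DG, 5 to 8 for GH plus Phen and 4 to 7 for 2DG plus Phen against DMSO, from 2 to 6 for GH plus Phen against GH, 6 to 8 against Phen and 1 to 3 against 2DG plus Phen, from 3 to 4 for 2DG plus Phen against 2DG and 6 to 7 against Phen, and from 2 to 6 and 1 to 2 for the departures of GH and of 2DG with Phen. Over all tested genes 149 rose and 216 fell for GH without DMSO A, and 437 and 674 did without GH plus Phen A. For Phen these counts were 12 and 4 without DMSO B, and 82 and 45 without GH plus Phen A. For 2DG they were 1232 and 2506 without DMSO A, and 3543 and 3991 without DMSO C. For GH plus Phen they were 632 and 1477 without GH plus Phen B, and 3235 and 3567 without GH plus Phen A. For 2DG plus Phen they were 1079 and 3120 without DMSO A, and 3326 and 4219 without DMSO C. Without GH plus Phen A, 2004 rose and 2756 fell for GH plus Phen against GH, and 3844 and 3973 did against Phen. For its departure 2172 and 2385 did. Without GH plus Phen B these counts were 249 and 594, 957 and 1714, and 97 and 172. Without 2DG plus Phen A, 282 and 678 did for 2DG plus Phen against 2DG, and 3062 and 3984 against Phen. For its departure 102 and 308 did. The number called over all tested genes moved with the setting as well. With the GC correction 916 of 12022 tested genes rose and 959 fell in GH, and 288 and 93 did in Phen. These counts were 1353 and 1290 for GH plus Phen against GH and 1011 and 1160 between the combinations. For the departure of 2DG with Phen they were 664 and 908. Of the 10 genes the correction called 5 for GH, 3 for Phen and 9 for GH plus Phen against GH. It called 5 between the combinations and 4 for the departure of 2DG with Phen. The same numbers of the 10 genes were found with the replicate block and the GC correction together. Except for GH plus Phen against GH, they were also found with the GC correction without DMSO C and GH plus Phen A. Without these 2 libraries and with no correction 4 of the 10 genes were called for GH and 6 for the departure of GH with Phen. Over all 12065 genes then tested 1163 rose and 1044 fell for GH, and 1130 and 1675 did for the departure. With only the groups compared in the fit the number of the 10 genes called was 1 for GH, 0 for Phen and 3 for GH plus Phen against DMSO. It was 2 for GH plus Phen against GH, 5 against Phen, 1 between the combinations and 1 for the departure of GH with Phen. Of 12108 tested genes 29 then rose and 55 fell for GH, 0 and 1 for Phen, and 178 and 477 for GH plus Phen against DMSO. The counts were 72 and 67 for GH plus Phen against GH, 631 and 1011 against Phen, and 60 and 58 between the combinations. For the departure of GH with Phen they were 81 and 142. The number of the 10 genes called was 0 for Phen with voom weights, 1 between the combinations with all genes above 0 in at least 1 library, and 1 for the departure of 2DG with Phen with quantile normalization. Over all tested genes the counts were 38 up and 26 down, 780 and 228, and 131 and 243 in the same order. At the study's thresholds the number of the 10 genes called was 1 for 2DG, 1 for GH plus Phen and 2 for 2DG plus Phen against DMSO, 1 for GH plus Phen against GH and 1 against Phen, 2 for 2DG plus Phen against Phen, and 0 in the other 6 comparisons. Of all 12108 tested genes these thresholds called 52, 66, 166, 23, 46 and 140 in the same order. In the other 6 they called 12 for GH, 1 for Phen and 32 for 2DG plus Phen against 2DG. They called 27 between the combinations, and 18 and 29 for the departures of GH and of 2DG with Phen.

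The replicate letters paired the libraries by the data (every pair over 0.1) only for GH against DMSO, where the block left the count at 2: deviations from the group means correlated at -0.434 to 0.592 for libraries of the same letter, the same letter was the best match in 16 of 30 cases, and every pair was over 0.1 in 1 of 10 comparisons. With the replicate block the count was 2 for Phen (PLK2 added) and 5 for the departure of GH with Phen (PLK3 and MDM2 added). Over all 12108 tested genes 73 then rose and 54 fell for Phen, and 685 and 1085 did for the departure. GADD45B and CDKN1A in GH plus Phen against DMSO and PLK3 in GH plus Phen against GH were added as well, and no call was lost.

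Among results past the threshold in either fit, the direction turned only with the GC correction. GADD45B against Phen in 2DG plus Phen was then -0.57 (-0.57 with the block, -0.58 without the 2 libraries). CDKN1A was -0.049 in 2DG (-0.049 and -0.10), -0.13 in 2DG plus Phen (-0.13 and -0.19), -0.45 in GH plus Phen against Phen (-0.45 and -0.43) and -0.024 in 2DG plus Phen against Phen (-0.024 and -0.027). CCNG1 was 0.15 in GH plus Phen (0.15 and 0.13), 0.29 in 2DG plus Phen (0.29 and 0.28), 0.088 in GH plus Phen against GH (0.088 with the block), 0.17 in GH plus Phen against Phen (0.17 and 0.16) and 0.31 in 2DG plus Phen against Phen (0.31 in both). CCNG2 was 0.22 in 2DG plus Phen against Phen (0.22 in both).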
